A study of Rattus norvegicus with 6 samples.

Results

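Pericyte and smooth muscle genes were read in RNA of the IM tip, which is where the inner medulla of the kidney ends, in rats with and without streptozotocin (STZ) diabetes. The list named 10 genes. They were taken as the rows of the deposited table whose name was exactly the gene's name, which held for 7 of the 10 among 27321 rows: Tagln, Myl9 and Des as contractile genes, and Pdgfra, Pdgfrb, Cspg4 and Rgs5 as genes of pericytes and interstitial cells. Acta2, Myh11 and Cnn1 were not analysed here under these names. The control group was 3 male Sprague-Dawley rats, 3 months of age, given vehicle (control), and the STZ group 3 such rats given 62.5 mg/kg of STZ, a toxin of the pancreatic beta cell, by tail vein. Both groups were killed at 15 days, so the diabetes was a chemical and short one. The study's sequencing was aimed at transcripts of protein glycosylation enzymes, and the genes described here lie outside that aim.

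The vasa recta, the straight vessels of the renal medulla, are wrapped by contractile pericytes that can narrow the vessel, and the interstitium between tubules and vessels holds fibroblast-like interstitial cells. Contraction in these mural cells uses smooth muscle actin, a smooth muscle myosin with its regulatory light chain, and thin filament proteins such as transgelin and calponin, and many of their genes are targets of serum response factor (SRF). Pericytes are recruited to endothelium by platelet derived growth factor (PDGF) acting on the PDGF receptor beta, while the alpha receptor is more typical of interstitial fibroblasts.

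Values are normalized counts, which are the reads of a gene divided by the size factor of its library. The 6 libraries held between 3412311 and 5575171 reads on genes, and a single read was worth 0.763 to 1.11 normalized counts. By the column names, lane 3 carried all 3 control libraries while lanes 7, 6 and 8 carried those of the STZ rats, so lane and diabetes cannot be told apart. RNA came from whole tissue, in which more cells of a type and more RNA per cell cannot be told apart. The collecting duct markers of this tissue were abundant, with Aqp3, a water channel, at 4728 to 22114 and Aqp2, the vasopressin-regulated water channel, at 2137 to 7413 normalized counts. Levels are not divided by transcript length and are therefore compared within a gene only.

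Among the 7 genes, 4 rose in STZ rats and none fell. The genes that rose were Tagln and Myl9 of the contractile apparatus and Pdgfra and Cspg4 of the pericyte and interstitial group, by ratios of group means between 2.01 for Pdgfra and 4.52 for Cspg4. Des, Pdgfrb and Rgs5 did not pass and their groups overlapped. Of the genes used to mark pericytes, Cspg4 rose, while Pdgfrb and Rgs5 did not pass. The 95% interval of the log2 fold change of Rgs5 (−0.13 to 1.10) includes a rise as large as that of Pdgfra. The test was limma on log2(normalized count + 1) with a Benjamini-Hochberg adjusted p under 0.05, over the 13486 features that averaged 5 or more normalized counts. Of those features 2.10% passed, 1.17% upward and 0.927% downward. All 7 genes passed the filter on low values, and each also had a control mean above it. In the downward direction the count of 0 was also 0 at an unadjusted p under 0.05, with edgeR and with DESeq2. Upward, edgeR, DESeq2 and limma with a replicate block each called 4 of the 7, against 1.13%, 3.62% and 2.22% of the features each tested. Limma without its trend of variance on intensity called 0 of the 7, and with a library left out it called 1 to 3. The groups did not overlap, with STZ above control, in 4 of the 7 genes against 10.1% of the features tested, or 20.3% when either direction is counted. The median log2 fold change of the 7 genes was 1.03 against 0.01 over all features tested. The genes were chosen with earlier results of these data known, so these shares and medians are descriptions and do not test for an excess.

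**Figure D1:**
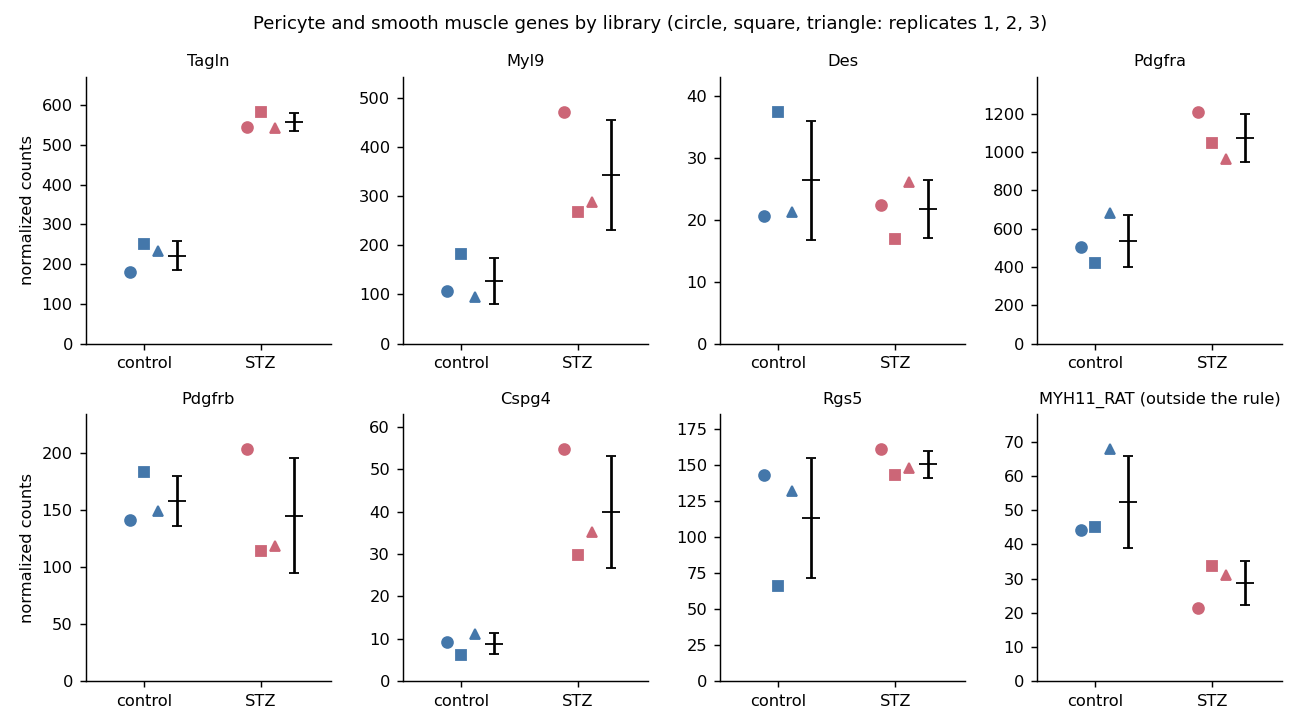
Normalized counts of each gene (vertical axis, starting at 0) in the 3 control and the 3 STZ libraries. Each symbol is a library, with the replicate number given by its shape, and the bars are the group mean and SD (n = 3). The STZ values of Tagln, Myl9, Pdgfra and Cspg4 lie above all control values, while those of Des, Pdgfrb and Rgs5 overlap them, and the row MYH11_RAT, which is outside the list, lies lower in all 3 STZ libraries.

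Tagln encodes transgelin, an actin-binding protein of smooth muscle and an early marker of its differentiation. Its row spans chromosome 8 of rn4 from 48902208 to 48907693. Control libraries 1, 2 and 3 held 180, 252 and 233 normalized counts, and STZ libraries 1, 2 and 3 held 546, 584 and 543. The lowest STZ library was thus more than double the highest control library in level, and the STZ rats were close to each other. Group means were 222 ± 36.9 for control and 558 ± 22.6 for STZ rats (SD, n = 3 each), a ratio of 2.52 and a log2 fold change of 1.34 with an SE of 0.19 (limma adjusted p = 0.00576). Tagln was the only one of the 7 genes that passed with each of the 6 libraries left out in turn, at an adjusted p between 0.00859 and 0.0381 by limma. Tagln overlaps its neighbours Sidt2 and Pcsk7, and reads in the overlaps were tabulated apart. The row that merges Tagln and Sidt2 had 5.13, 7.63 and 7.79 normalized counts in control and 18.6, 11.9 and 9.03 in STZ libraries, small beside the Tagln row itself, so the value of Tagln changes little with them. Strand use in the counting is not given in the sources used here.

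Myl9 encodes the smooth muscle form of the myosin regulatory light chain, whose phosphorylation starts contraction. The gene is on chromosome 3 from 147187517 to 147193866. In the control libraries Myl9 stood at 107, 182 and 95.7 normalized counts (numbers 1 to 3), against 472, 268 and 288 under STZ. STZ replicate 1 was the highest, and control replicate 2 was the highest control library, but the groups did not overlap. Group means were 128 ± 46.7 for control and 343 ± 112 for STZ rats (SD, n = 3 each), a ratio of 2.68 and a log2 fold change of 1.42 with an SE of 0.29 (limma adjusted p = 0.0328). The call rests on the full set of libraries: it held only with control replicate 2 left out (adjusted p = 0.0268 by limma), and with any other library left out the adjusted p was between 0.0531 and 0.0989, the log2 fold change staying between 1.17 and 1.58.

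Des encodes desmin, the intermediate filament of muscle cells and of many pericytes. On chromosome 9 from 74637792 to 74645503, Des was low, at 20.5, 37.4 and 21.1 normalized counts in the controls and 22.3, 16.8 and 26.1 in the STZ rats. The STZ values lay within or just under the range of the controls. The log2 fold change was −0.23, with a 95% interval of −0.98 to 0.51 (SE 0.34, limma adjusted p = 0.858), an interval that leaves out a rise of the size seen for Tagln. With control replicate 2 left out the sign turned (0.04).

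Pdgfra, the alpha receptor for PDGF, was the most read of the 7 genes. The locus is chromosome 14 from 35369422 to 35418126. Pdgfra stood at 505, 419 and 681 normalized counts in the controls and at 1210, 1047 and 963 in the STZ rats. Each STZ library exceeded each control library. Group means were 535 ± 134 for control and 1073 ± 126 for STZ rats (SD, n = 3 each), a ratio of 2.01 and a log2 fold change of 1.03 with an SE of 0.21 (limma adjusted p = 0.0364). Like Myl9 it passed in a single leave-out, that of control replicate 3 (adjusted p = 0.0129 by limma), and without any other library the adjusted p was between 0.0743 and 0.173, with a log2 fold change of 0.86 to 1.10.

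Cspg4, the NG2 proteoglycan of the pericyte surface, showed the widest difference of the 7 genes. Its row covers chromosome 8 from 60610834 to 60645877. The controls held 9.23, 6.10 and 11.1 normalized counts, from 9, 8 and 10 reads, and the STZ rats 54.8, 29.7 and 35.1, from 59, 30 and 35 reads. Even the lowest STZ library was well above the highest control library, although all control values rest on few reads. Group means were 8.82 ± 2.54 for control and 39.9 ± 13.2 for STZ rats (SD, n = 3 each), a ratio of 4.52 and a log2 fold change of 2.04 with an SE of 0.37 (limma adjusted p = 0.0196). It passed with control replicate 1 or 3 left out, at adjusted p-values by limma of 0.0445 and 0.0164. Without control replicate 2, or without STZ replicate 1, 2 or 3, the adjusted p was between 0.055 and 0.0859, and the log2 fold change between 1.80 and 2.23.

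Pdgfrb, the receptor through which PDGF holds pericytes on vessels, did not pass the test. At chromosome 18 from 57014474 to 57053581, it stood at 141, 183 and 149 normalized counts in the controls and at 203, 114 and 118 in the STZ rats. STZ replicate 1 was the highest of the 6 libraries and the other STZ libraries were the lowest. The log2 fold change was −0.16, with a 95% interval of −0.71 to 0.38 (SE 0.25, limma adjusted p = 0.866). A doubling like that of Pdgfra lies outside this interval.

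Rgs5, a regulator of G protein signalling that is enriched in pericytes, lies on chromosome 13 from 85445262 to 85482498. The controls held 142, 65.6 and 131 normalized counts and the STZ rats 161, 142 and 148. Control replicate 2 was low, and STZ replicate 2 lay just under control replicate 1. The log2 fold change was 0.48, with a 95% interval of −0.13 to 1.10 (SE 0.28, limma adjusted p = 0.479), and it was 0.13 with control replicate 2 left out. A rise as large as that of Pdgfra lies within this interval.

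A row named MYH11_RAT, the entry name that protein databases use for the smooth muscle myosin heavy chain, is outside the list's exact names and was singled out after its values were seen. Its span is chromosome 10 from 666714 to 776052, between the rows of Abcc1 and Nde1, which also flank Myh11 closely in the RefSeq gene list of GRCr8. The controls held 44.1, 45.0 and 67.9 normalized counts and the STZ rats 21.4, 33.6 and 31.1. All STZ values lay under all control values, the opposite order to Tagln and Myl9. The log2 fold change was −0.84 (SE 0.29, 95% interval −1.47 to −0.21), but the adjusted p was 0.18 by limma, and between 0.105 and 0.434 over 15 alternatives.

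**Figure D2:**
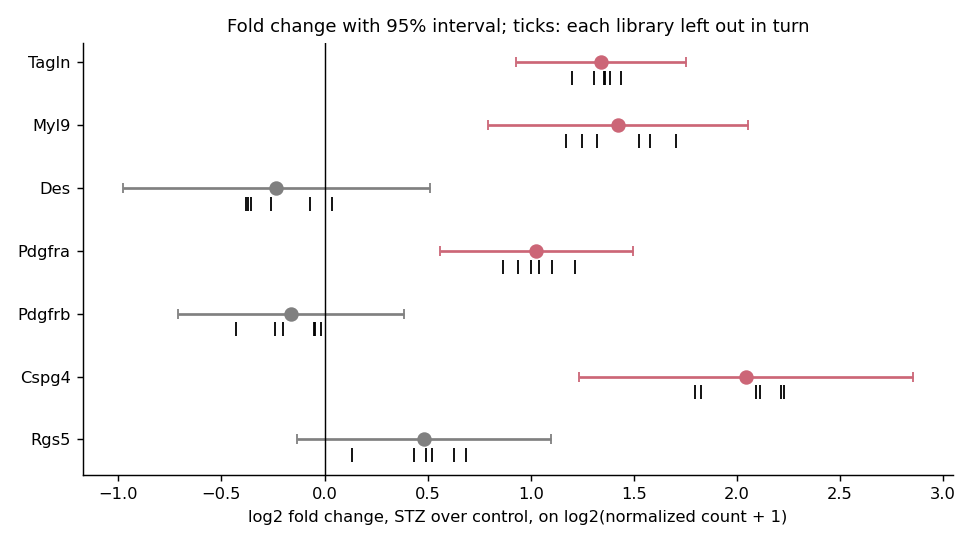
Log2 fold change of STZ over control for the 7 genes on the log2(normalized count + 1) scale (horizontal axis). Points and bars are the limma estimate and its 95% interval, red where the adjusted p was under 0.05, and the black ticks below are the estimates with each of the 6 libraries left out. Estimates for Tagln, Myl9, Pdgfra and Cspg4 stay at or above 0.86 in every leave-out, whereas that of Des crosses 0 and those of Pdgfrb and Rgs5 have intervals that include 0.

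Ratios of a pair of genes within a library do not depend on the size factor, and 4 were compared. Myl9 was set against Myl12b, a regulatory light chain of nonmuscle myosin. Its log2 ratio averaged −5.20 ± 0.37 in the controls and −3.37 ± 0.54 in the STZ rats (SD, 3 libraries each), a difference of 1.83, and every STZ library lay above every control library (two-sided exact permutation p = 0.1, which is the lowest value possible with 3 against 3). Tagln against Tagln2, its paralog in nonmuscle cells, a pair added after the values were seen, gave log2 ratios of −3.42 ± 0.62 and −1.85 ± 0.24, a difference of 1.58, again without overlap (two-sided exact permutation p = 0.1). Neither paralog passed by itself, with log2 fold changes of −0.40 for Myl12b (adjusted p = 0.377 by limma) and −0.23 for Tagln2 (adjusted p = 0.759).
The log2 ratio of Pdgfrb to Pdgfra was −1.84, −1.19 and −2.19 in the controls and −2.57, −3.20 and −3.02 in the STZ rats. It was lower in every STZ library, with a difference of −1.19 between the means (two-sided exact permutation p = 0.1). Summed over the contractile genes and divided by the sum of the pericyte and interstitial genes, the log2 ratio was −1.12 ± 0.53 in control and −0.61 ± 0.04 in STZ rats, with overlap (two-sided exact permutation p = 0.4). Over the 4 ratios the Benjamini-Hochberg adjusted p was 0.133 for the 3 without overlap and 0.4 for the ratio of sums, and no ratio could reach 0.05.

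**Figure D3:**
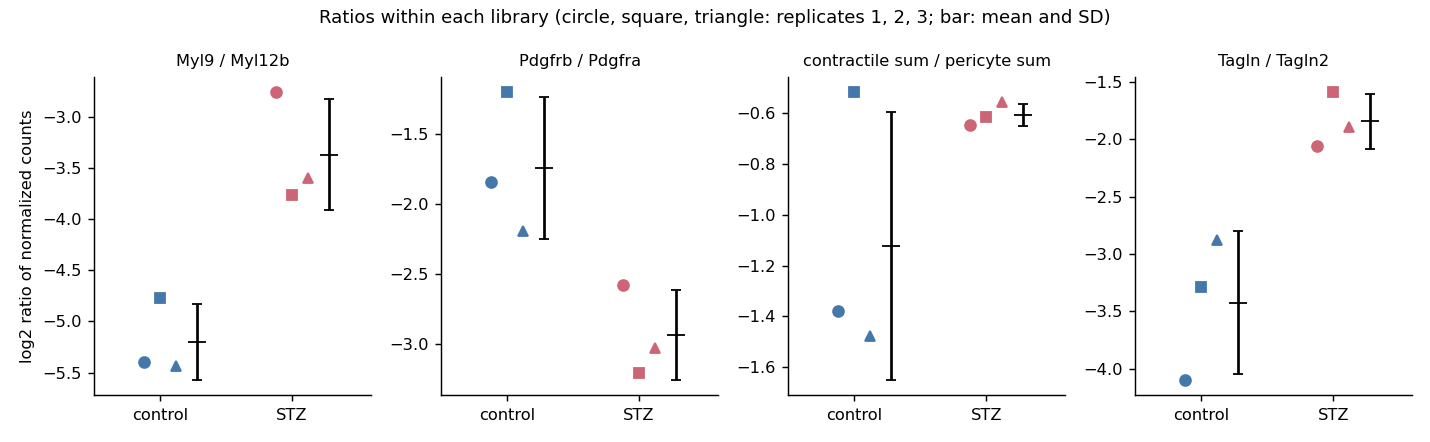
Log2 ratio of normalized counts within each library (vertical axis, not starting at 0) for Myl9 over Myl12b, Pdgfrb over Pdgfra, the summed contractile over the summed pericyte genes, and Tagln over Tagln2. Symbols are libraries and bars the mean and SD (n = 3). The groups are apart in all panels but the third, where control replicate 2 lies above the STZ libraries.

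Libraries of the same group also differed in which genes were high. After the group means were taken off, the log2 values of Pdgfra and Cspg4 had a Pearson r of 0.82 over the 6 libraries and those of Pdgfrb and Myl9 one of 0.89, whereas Des and Rgs5 had −0.79. These are descriptions over 6 libraries, in each of which all genes share a depth and a size factor, and not tests. The 5 features whose level followed Pdgfrb most closely, among 6882 that averaged 50 or more normalized counts, were D4AC54_RAT, Mtm1, Map3k7ip1, Gss and Ptpn3, with Pearson r between 0.953 and 0.971 over the 6 libraries and Spearman rho between 0.886 and 0.943. For these 5 the group means were not taken off, and the values are the highest among many features over 6 libraries. None of the 5 passed the test between groups, with adjusted p-values between 0.799 and 0.965 by limma.

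Together the 7 genes took between 0.0232% and 0.0348% of the reads on genes in the control libraries and between 0.0497% and 0.0573% of those in the STZ libraries. The summed contractile genes had 308 to 471 normalized counts in control and 857 to 1040 in STZ libraries, and the summed pericyte and interstitial genes 674 to 973 and 1264 to 1629. Neither sum overlapped between the groups. Most of the first is Tagln and Myl9 and most of the second is Pdgfra.

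Most other genes of the contractile apparatus and its control did not pass the test. Of 22 further genes of this kind that were found, 19 were tested, 1 rose, none passed downward and 18 did not pass. Over all features tested, 1.17% rose and 0.927% fell. Their median log2 fold change was 0.04, beside 0.01 over all features tested. The gene that rose was Flna, encoding the actin crosslinker filamin A, which had 202, 242 and 275 normalized counts in the controls and 385, 426 and 493 in the STZ rats (log2 fold change 0.86, SE 0.19, limma adjusted p = 0.0479). It did not pass with edgeR, with equal library totals or without the intensity trend (adjusted p = 0.0505, 0.0896 and 0.187), and with any library but control replicate 3 left out the adjusted p was between 0.0823 and 0.17.
The 3 most read of these genes were Csrp1, a LIM protein of smooth muscle, Tpm1, a tropomyosin, and Vcl, the adhesion protein vinculin. Their log2 fold changes were 0.44, 0.25 and 0.57, with adjusted p-values of 0.426, 0.711 and 0.462 by limma and overlapping groups. Srf, the transcription factor SRF itself, had a log2 fold change of 0.0029 with an SE of 0.26 (limma adjusted p = 0.999).
All STZ values lay above all control values in 2 of the 19, Flna and Mrvi1, and under them in 3, against 10.1% and 10.3% of all features tested, and in so short a list neither count is a result about it. The 3 were Synpo2, an actin-bundling protein, Actg2, the gamma actin of smooth muscle, and Ppp1r14a, an inhibitor of myosin phosphatase, and like Mrvi1, a target of cGMP-dependent kinase, they are named after their values were seen. Synpo2 had 47.2, 33.6 and 27.8 normalized counts in control and 19.5, 15.8 and 21.1 in STZ libraries, a log2 fold change of −0.89 with an SE of 0.30 (limma adjusted p = 0.184). Actg2 and Ppp1r14a had means of 8.71 and 8.53 in control and 2.60 and 3.57 in STZ rats, so that both reached the filter on low values only through the controls, and their adjusted p-values were 0.41 and 0.47. Mrvi1 had a log2 fold change of 1.01 (adjusted p = 0.411). At an unadjusted p under 0.05, 2 of the 19 genes were higher and 1 was lower, and edgeR and DESeq2 called none lower. Myocd, the SRF coactivator of smooth muscle, Pln and Kcnmb1 were not tested, with at most 6.02 normalized counts in any library.

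The genes that signal to or mark mural cells were 21, of which 18 were tested. None passed upward and 1 passed downward, against 1.17% and 0.927% of all features tested. At an unadjusted p under 0.05, 1 was higher and 3 were lower. With edgeR none was higher and 1 lower, and with DESeq2 1 was higher and 1 lower. The single gene that fell was Angpt2, encoding angiopoietin-2, the ligand of the endothelial receptor Tie2 that loosens pericytes from vessels when it opposes angiopoietin-1. Angpt2 stood at 3713, 4619 and 3511 normalized counts in the controls and at 936, 1142 and 976 in the STZ rats. The groups were far apart, with a ratio of means of 0.258 and a log2 fold change of −1.95 with an SE of 0.19 (limma adjusted p = 0.00072), and it passed in all 15 alternatives. Angpt1, encoding angiopoietin-1, had a log2 fold change of 0.18 with an SE of 0.27 (limma adjusted p = 0.863), and Tek, encoding Tie2, one of −0.61 (SE 0.20, limma adjusted p = 0.156) with all STZ values under the controls.
Of the PDGF ligands, Pdgfa had 222, 149.5 and 265 normalized counts in control and 123, 122 and 173 in STZ libraries, with overlap (log2 fold change −0.58, SE 0.25, limma adjusted p = 0.297). Pdgfc and Pdgfd had log2 fold changes of −0.26 and 0.43, with adjusted p-values of 0.889 and 0.861. Pdgfb, the classical ligand for pericytes, had at most 4.02 normalized counts and was above 3 reads in 2 of the 6 libraries, so it was not tested. Jag1, a Notch ligand, and Anpep, an aminopeptidase found on pericytes, were the most read after Angpt2 and had log2 fold changes of 0.21 and 0.37 (adjusted p = 0.809 and 0.57). Rgs4, a relative of Rgs5, had 78.9, 58.0 and 86.8 normalized counts in control and 226, 121 and 129 in STZ libraries, a log2 fold change of 1.04 (SE 0.27) that missed the threshold at an adjusted p of 0.0848 by limma.

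Among 18 genes of interstitial fibroblasts and their matrix, 15 were tested, 1 rose and none passed downward, against 1.17% and 0.927% of all features tested. At an unadjusted p under 0.05, 3 were higher and 1 was lower, edgeR called none lower and DESeq2 called 1. The lower gene was Dpt, encoding dermatopontin, a matrix protein, named after its values were seen, at 36.9, 40.4 and 46.7 normalized counts in the controls and 15.8, 15.8 and 5.02 in the STZ rats (log2 fold change −1.82, SE 0.42, limma adjusted p = 0.0517). Postn, encoding periostin, a matrix protein made by activated fibroblasts, had 2.05, 0.763 and 3.34 normalized counts in the controls, none of which exceeds 3 reads, and 27.9, 42.5 and 24.1 in the STZ rats. Taken against a floor of 3 reads per library, it was at least 10.9-fold higher in STZ rats (adjusted p = 0.00858 by limma). With STZ replicate 2 left out the adjusted p was 0.0953. Postn averaged 2.05 normalized counts in the controls and so reached the filter on low values only through the STZ rats, where it was high. The most read of the list were Dcn, S100a4 and Col1a2, encoding decorin, a calcium-binding protein and a chain of type I collagen. Their log2 fold changes were −0.37, −0.32 and 0.61, with adjusted p-values of 0.705, 0.648 and 0.284 and overlapping groups. The list's median log2 fold change was −0.10.

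**Figure D4:**
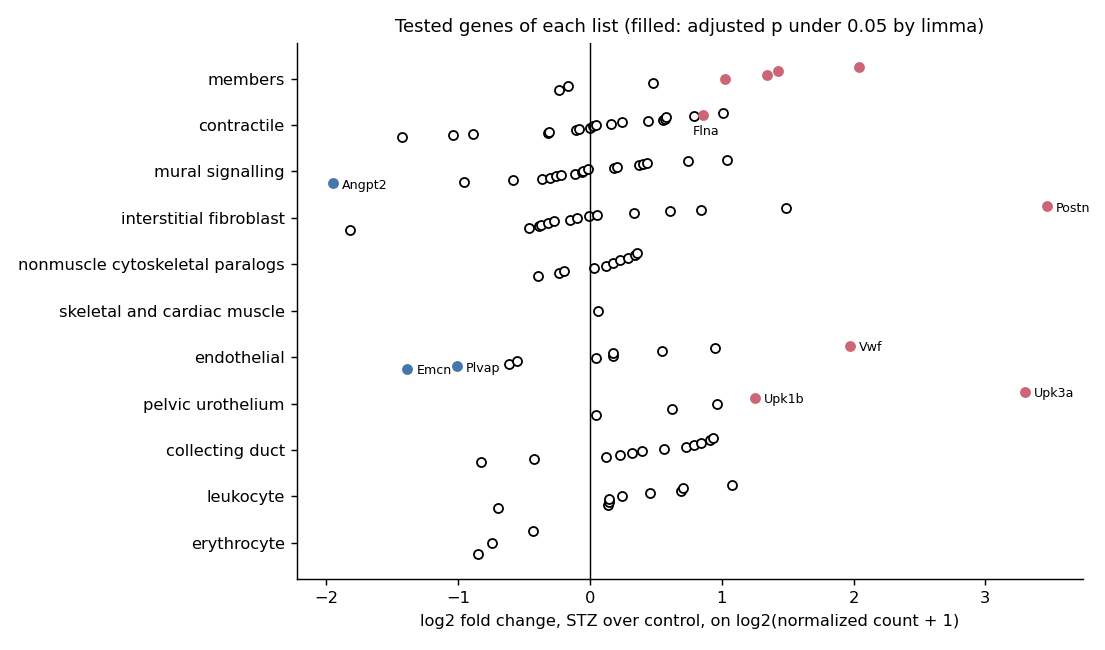
Log2 fold change of STZ over control (horizontal axis) for every tested gene of the 7 genes of interest (members) and of each further list, a point per gene. Filled red points rose and filled blue points fell at an adjusted p under 0.05 by limma, and open points did not pass. Of the 7 genes 4 are filled, the further contractile list has 1 filled gene of 19 and the mural signalling list 1 of 18. Over all features tested 2.10% passed, and in lists this short 1 gene is no result about the list.

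Markers of other cells in this tissue were read beside these values. The 10 endothelial genes found were all tested, 1 rose and 2 fell, against 1.17% and 0.927% of all features tested. Emcn, an endothelial sialomucin, had 6520, 5184 and 4827 normalized counts in control and 2246, 2003 and 2037 in STZ libraries (log2 fold change −1.38, SE 0.20, limma adjusted p = 0.00679). Plvap, a protein of endothelial fenestrae, had 328, 243 and 266 in control and 148, 119 and 147 in STZ libraries (log2 fold change −1.01, SE 0.20, limma adjusted p = 0.029), and passed in 9 of 15 alternatives. Vwf, von Willebrand factor, had 26.7, 51.9 and 64.6 in control and 103, 227 and 242 in STZ libraries (log2 fold change 1.97, SE 0.38, limma adjusted p = 0.0264), and also passed in 9 of 15. Esam, an adhesion molecule of endothelial junctions, had a log2 fold change of 0.18 (limma adjusted p = 0.782). The list's median log2 fold change was 0.11, with 6 of 10 genes positive. The summed endothelial level was 8116 to 10033 in control and 4878 to 5387 in STZ libraries. Most of this difference came from Emcn, since the other 9 genes summed to 2932 to 3665 and 2841 to 3384, with overlap. That sum mixes genes that differ in direction. At an unadjusted p under 0.05 by limma, 3 of the 10 endothelial genes were higher and 4 were lower. The groups did not overlap in 2 genes upward and 4 downward, against 10.1% and 10.3% of all features tested. The part of endothelial RNA in the values of the 7 genes was not tested. Leaving out libraries ended the call of Plvap except for control replicate 3, and that of Vwf except for control replicate 3 and STZ replicate 1, with adjusted p-values of up to 0.136 and 0.109.
The renal pelvis, whose wall holds smooth muscle under a urothelium, borders the IM tip. Of 6 urothelial genes found, 5 were tested and 2 rose, against 1.17% of all features tested. All 5 had positive log2 fold changes, with a median of 0.96 beside 0.01 over all features tested. All STZ values lay above all control values in 3 of the 5, against 10.1% of all features tested. Upk3a averaged 35.3 ± 12.8 normalized counts in the controls and 344 ± 19.7 with STZ, and Upk1b 29.4 ± 8.63 and 70.3 ± 13.5 (SD over 3 libraries, limma adjusted p = 0.000117 and 0.0489). Upk1b did not pass when any library but control replicate 3 was left out, the adjusted p then being between 0.0769 and 0.206. Upk1a, itself a uroplakin of the urothelial plaque, had a log2 fold change of 0.04 (limma adjusted p = 0.979). The summed urothelial level was 87.7 to 136 in control and 443 to 520 in STZ libraries, and its part in the values of Tagln and Myl9 was not tested.
Collecting duct genes did not pass in any of 12 tested, although 10 had positive log2 fold changes, with a median of 0.48 beside 0.01 over all features tested. All STZ values lay above all control values in 5 of the 12 and under them in 1, against 10.1% and 10.3% of all features tested. At an unadjusted p under 0.05, 5 were higher and 1 was lower. For this list edgeR called none, and DESeq2 called 3 higher, against 3.62% of the features it tested. Aqp3, Aqp2 and Aqp4, all water channels, had log2 fold changes of 0.91, 0.84 and 0.12 (limma adjusted p = 0.263, 0.18 and 0.897). Their list's summed level was 12048 to 20537 in control and 20230 to 37817 in STZ libraries. Nonmuscle paralogs such as Actb and Actg1, the cytoplasmic actins (log2 fold changes 0.12 and 0.23, limma adjusted p = 0.939 and 0.844), did not pass in any of 10 tested, with none at an unadjusted p under 0.05 and none by edgeR or DESeq2. Leukocyte genes, led by Cd74, Lyz2 and Cd14 (log2 fold changes 0.69, 0.15 and −0.70, limma adjusted p = 0.643, 0.934 and 0.0751), did not pass in any of 9 tested, with 1 lower at an unadjusted p under 0.05, none by edgeR and 1 lower by DESeq2. Erythrocyte genes, Hbb, Hba2 and Hbb-b1 (log2 fold changes −0.85, −0.44 and −0.75), did not pass in any of 3, with 1 lower at an unadjusted p under 0.05 and none by edgeR or DESeq2, although their counts are uncertain because the globin genes are near-identical copies. Of 7 skeletal and cardiac muscle genes found, 1 was tested, Myh2, with 3.71 to 70.3 normalized counts over the 6 libraries and overlapping groups (adjusted p = 0.988, above 0.05 unadjusted and not called by edgeR or DESeq2), and Mb, Tnni2 and Myl1 were at or under 3 reads in all 6 libraries. The part of these cells in the contractile gene values was not tested.

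Promoters were read for genes that passed and for genes that did not, since Pdgfra and Cspg4 passed the test while Des and Rgs5 did not. RefSeq entries of GRCr8 were matched for 6 of the 10 genes listed, 4 of them with values, and 2 of those rose. Tagln and Myl9, which also rose, had no matched entry, so their promoters were not read. The 250 bases before the start of each are given 5′ to 3′, with capitals marking matches on either strand to the CArG box of SRF with up to 1 mismatch, to the box GGGCGG of Sp factors, to the CCAAT box and to the motif GGAATG of TEAD factors.
Pdgfra, chr14:33408517-33408766, minus strand: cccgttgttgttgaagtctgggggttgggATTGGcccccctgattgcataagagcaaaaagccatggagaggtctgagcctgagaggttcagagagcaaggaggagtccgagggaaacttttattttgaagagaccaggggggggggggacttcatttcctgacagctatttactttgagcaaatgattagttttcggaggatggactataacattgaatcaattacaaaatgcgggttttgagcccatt
Cspg4, chr8:66160692-66160941, plus strand: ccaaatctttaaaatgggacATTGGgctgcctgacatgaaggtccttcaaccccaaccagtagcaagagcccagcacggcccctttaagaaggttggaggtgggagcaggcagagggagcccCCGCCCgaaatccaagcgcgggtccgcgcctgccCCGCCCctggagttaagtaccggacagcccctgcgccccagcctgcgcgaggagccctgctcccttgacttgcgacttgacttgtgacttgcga
Des, chr9:84299376-84299625, plus strand: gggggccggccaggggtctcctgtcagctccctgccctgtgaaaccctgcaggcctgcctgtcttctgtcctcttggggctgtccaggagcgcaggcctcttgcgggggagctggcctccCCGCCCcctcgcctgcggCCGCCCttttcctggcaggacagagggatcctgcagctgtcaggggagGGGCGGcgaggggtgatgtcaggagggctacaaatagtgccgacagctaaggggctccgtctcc
Rgs5, chr13:84380827-84381076, plus strand: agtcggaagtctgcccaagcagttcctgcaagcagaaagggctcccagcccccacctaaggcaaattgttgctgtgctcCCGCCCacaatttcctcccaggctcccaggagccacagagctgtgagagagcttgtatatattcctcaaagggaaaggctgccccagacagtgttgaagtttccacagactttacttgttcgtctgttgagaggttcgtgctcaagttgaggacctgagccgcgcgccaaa
None of these 4 windows held a CArG box, with or without a mismatch, and none held GGAATG. In 33469 RefSeq promoter windows of the same length, 501 held the CArG box without mismatch, 8.08% held it with up to 1 mismatch and 12.1% held GGAATG. The Sp box was found in 30.5% of all windows, 3 times in Des, 2 times in Cspg4 and 1 time in Rgs5. The CCAAT box, in 34.0% of all windows, was found 1 time each in Pdgfra and Cspg4 and in neither Des nor Rgs5. It was found 2 times in Cnn1, which has no values here. With so few windows, no difference in motifs between genes that passed and those that did not pass can be read. In Acta2, which has no values here, the window held the 1-mismatch boxes CCCTATATGG and CCTTGTTTGG, which began 134 and 84 bases before the start. A match is a description of the letters and not a site, and the absence of a match covers this window only.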

How the data were processed

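RNA from the IM tip of 3 control and 3 STZ rats was made into cDNA with a PCR-based kit and sequenced on a HiSeq2000. Per the methods and the submitters' processing notes, the authors aligned reads to rn4 with STAR 2.3.1t, counted uniquely mapped reads per gene and normalized them with DESeq 1.16.0. The counting program is not given in the sources used here. The deposited signal is thus a read count over a library's size factor. In every library 100.0% of values were multiples of a smallest step (tolerance 0.01), so reads could be recovered. PCR copies are counted as reads, and a floor of 3 reads covers counting error only.

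The main test used limma 3.58.1 (R 4.3.3), with a trend of variance on intensity, for log2(normalized count + 1) over features averaging 5 or more, 3 against 3 libraries. Benjamini-Hochberg adjustment was over all 13486 features. Fold changes are on the log2(value + 1) scale, which understates those of low genes. Ratios were compared by two-sided exact permutation tests. edgeR 4.0.16 (quasi-likelihood, TMM) and DESeq2 1.42.0 were run on recovered reads as alternatives, with pseudocounts of 0.5 and 5, no filter, a minimum mean of 20, no trend, equal library totals, the replicate number as a block and each library left out. The ratio of group means, the pair Tagln and Tagln2, 1 mismatch in the CArG box and the endothelial sum without Emcn were chosen after seeing the data. Fits were tested on simulated data. The genes and lists were chosen with earlier results of these data known. Named are the listed genes, from each list those that passed and the 3 most read, the PDGF ligands and the 5 features most correlated with Pdgfrb. Beside them, Angpt1, Srf, Rgs4, Synpo2, Actg2, Ppp1r14a, Mrvi1, Dpt, Myocd, Pln, Kcnmb1, Mb, Tnni2, Myl1 and MYH11_RAT are named. A ratio and correlates planned for Acta2 were not made, since it was not analysed here. The sources give 3 samples a group and no pooling, and p-values measure only the spread between these samples, which may be technical. Tables and figures were made in Python 3.11.15 with pandas 2.3.3.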

Additional observations from a re-analysis of the deposited data

How the results depend on the processing

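The number of the 7 genes that passed was 4 in limma and 4 in each of 8 alternatives with all 6 libraries: both pseudocounts, both filters, equal library totals, edgeR, DESeq2 and the replicate block. Limma without the intensity trend called 0, with 31 instead of 283 features over the table, and there Tagln (1.34), Myl9 (1.42), Pdgfra (1.03) and Cspg4 (2.04) kept their log2 fold changes at adjusted p-values of 0.084, 0.179, 0.179 and 0.084. With a library left out, which leaves fewer samples, 1 to 3 of the 7 passed, the log2 fold changes running from 1.20 to 1.44 for Tagln, 1.17 to 1.70 for Myl9, 0.86 to 1.21 for Pdgfra and 1.80 to 2.23 for Cspg4. That count was 1 without STZ replicate 1, 2 or 3, 2 without control replicate 1 or 2, and 3 without control replicate 3. Des ran from −0.38 to 0.0377 and changed sign without control replicate 2 only. No other of the 7 genes changed sign under any alternative, and the ratio of group means kept every sign.

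In the further lists 8 of 102 tested genes passed, beside 2.10% of all features tested. Of these 8, Postn reached the filter on low values only through the STZ rats, where it was high. The count of genes that passed was 3 without the trend, 5 with equal library totals and 13 with DESeq2. It was 3 to 9 with a library left out (3 without STZ replicate 2, 4 without control replicate 1 or 2 or STZ replicate 3). Postn was not tested at a minimum mean of 20 and got no adjusted p from DESeq2. The cause of these shifts was not tested. Over the table, calls numbered 599 with DESeq2, 561 with the replicate block, 287 with edgeR, 413 without a filter and 86 to 341 with a library left out. The median log2 fold change of all features moved by less than 0.1 in every setting.

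Control and STZ rats share replicate numbers only. Deviations of same-numbered libraries correlated with r = 0.395, −0.061 and 0.323 (across 9315 features, which are not replicates), and control replicate 2 did not correlate best with its own number. Under the replicate block, the 7 genes gave 4 calls and the further lists 11.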
